A study of Homo sapiens with 6 samples.

Results

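The proteasome is the protease that degrades most ubiquitin-tagged proteins in the cell, and its subunits and assembly chaperones are the genes described here. They were taken as every row of the deposited count table whose symbol starts with PSM, followed by a letter from A to G and a number. The rule found 47 of the 33835 genes in the table: 7 core alpha subunits (PSMA), 11 core beta subunits (PSMB), 6 ATPases (PSMC), 14 lid and base genes (PSMD), 5 activators and inhibitors (PSME and PSMF) and 4 assembly chaperones (PSMG). All were measured in DU145, an established human prostate cancer cell line, by RNA sequencing in 2 groups of 3 libraries. The shE6AP cells carried a short hairpin against E6AP, the ubiquitin ligase encoded by UBE3A, and the wobble cells carried a control hairpin that the labels do not describe further. Both groups were given doxycycline at 0.2 µg/ml for 2.5 days. Whether the cells are pools or clones, and whether the libraries of a group come from separate cultures, is not stated, so p-values measure the spread between these libraries only, which may be technical. The study looked for genes whose transcripts depend on E6AP.

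Gene reads ran from 21558506 to 30488217 per library. Levels below are CPM, gene reads brought to a common library size with edgeR's TMM factors, given for libraries 1 to 3 of each group in that order. Fold changes set shE6AP over wobble as log2 values, and a gene was called higher or lower when edgeR's quasi-likelihood test gave a Benjamini-Hochberg adjusted p under 0.05 over the 19433 genes tested. UBE3A stood at 14.2, 14.5 and 15.0 CPM in shE6AP, against 54.1, 55.4 and 57.9 CPM in wobble, so the groups did not overlap (log2 fold change -1.94). All 5 epithelial markers were present, with 3 higher in shE6AP and 2 lower: log2 fold changes were 1.04 for EPCAM, 0.33 for KRT18 and 0.22 for KRT8, against -0.13 for KRT19 and -0.16 for CDH1. In these bulk libraries, fewer cells making a transcript and less of it per cell cannot be told apart.

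As background, the core particle is a barrel of stacked alpha and beta rings. The outer alpha rings gate entry, and some beta subunits carry the catalytic sites inside. A regulatory particle caps it: ATPases and a few other subunits form the base, which unfolds and feeds in the substrate, and the lid removes ubiquitin. In cells exposed to interferon, 3 inducible catalytic subunits replace the constitutive ones and form the immunoproteasome, which changes the peptides offered to MHC class I. E6AP hands substrates to this machine, and it docks on the base through the ubiquitin receptor encoded by PSMD4.

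The proteasome genes did not move as a block. Of the 46 members tested, 18 were higher and 16 lower in shE6AP, and 12 did not pass. Calls were common among all genes, where 59.0% passed, 28.6% higher and 30.4% lower, so the number of calls by itself says little about the members. Their changes were small: only PSMB9, PSMG2, PSMD14 and PSMD10 reached a fitted fold of 1.5 either way, 4 of 46 against 19.0% of all genes tested. The median log2 fold change was 0.02 over the members and 0.01 over all genes tested, and the SD was 0.32 over the members and 0.67 over all genes. Summed over the members, the level was 4902 ± 109 CPM in shE6AP and 5040 ± 126 CPM in wobble (SD, n = 3 each), with overlapping libraries. In 36 of 46 members the groups of libraries did not overlap, against 62.6% of all genes tested. The members are not matched to all genes by level. Group means of tested members ran from 6.98 CPM (PSMB9 in wobble) to 521 CPM (PSMD2 in wobble). All genes tested include far lower ones, such as PTPRC at 0.359 CPM in shE6AP and 0.267 CPM in wobble. The part of level in these comparisons was not tested. PSMB11, the thymus-specific catalytic subunit, had at most 1 read in a library and was not tested.

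**Figure D1:**
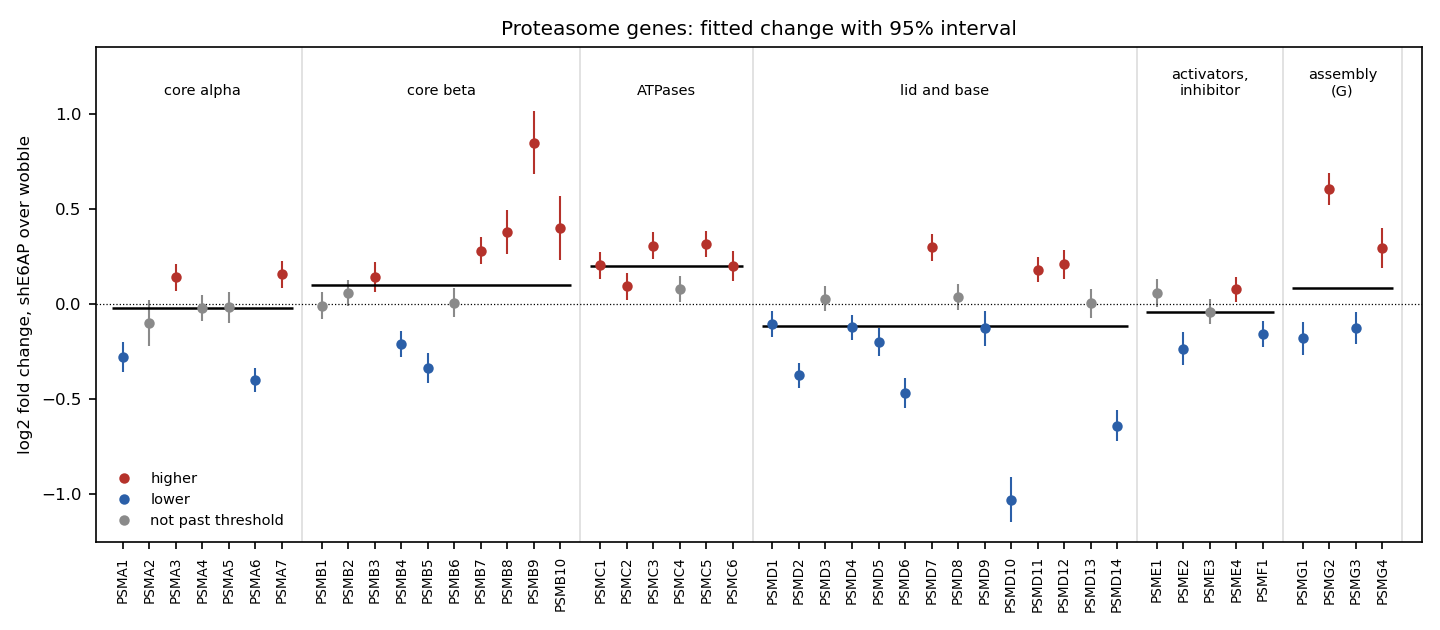
Log2 fold change of shE6AP over wobble (vertical axis) for each of the 46 tested members, grouped by class; points are fitted values, error bars their 95% intervals and black lines the class medians. The ATPases lie above 0, with a median of 0.20, while the lid and base genes reach from -1.03 for PSMD10 to 0.30 for PSMD7.

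With 3 libraries a group and little spread between them, small differences pass the test. When a change beyond 1.2-fold was required (edgeR's glmTreat), 3 members were higher (PSMB8, PSMB9 and PSMG2; 13.1% of all genes were higher) and 6 were lower (PSMA6, PSMB5, PSMD2, PSMD6, PSMD10 and PSMD14; 15.9% of all genes were lower). With an assumed coefficient of variation of 0.1 in a likelihood ratio test, an alternative chosen after seeing the data, those 6 were again lower, and 7 were higher: the same 3 with PSMB10, PSMC3, PSMC5 and PSMD7. Under that assumption 16.0% of all genes were higher and 18.7% lower.

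In the alpha rings, 2 of 7 members were higher, 2 lower and 3 did not pass, with a median of -0.02 that turned to 0.01 with upper-quartile scaling. That median was -0.054 without shE6AP library 1, -0.033 without shE6AP library 3, -0.0043 without wobble library 1 and -0.057 without wobble library 2. PSMA6 stood at 297, 287 and 293 CPM in shE6AP, against 399.9, 379 and 379 CPM in wobble (log2 fold change -0.40, SE 0.0324; edgeR adjusted p = 1.89e-14). PSMA1 had 51.9, 49.3 and 54.3 CPM in shE6AP and 63.4, 61.3 and 64.3 CPM in wobble, a log2 fold change of -0.28. In both genes every shE6AP library was below every wobble library. The rises were smaller. PSMA7 was at 129.7, 123 and 124 CPM in shE6AP and at 116, 109.6 and 113 CPM in wobble (0.15). For PSMA3 the levels were 116, 109 and 112 CPM in shE6AP and 103, 100.3 and 103 CPM in wobble (0.14). PSMA2, PSMA4 and PSMA5 had log2 fold changes of -0.10, -0.02 and -0.02, with 95% intervals between -0.22 and 0.06. PSMA2, at 17.1 CPM in shE6AP and 18.4 CPM in wobble, shares 54.1% of its exon bases with other genes in GENCODE 29, among them MRPL32 on the opposite strand. PSMA1 and PSMA6 share 35.7% and 63.9% with same-strand genes that have no row in the table. The counting set aside 2.05% to 2.21% of reads as ambiguous between genes. Its annotation and strand setting are not stated, so which shared bases this touched is unknown and levels of genes with such overlap are uncertain.

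Of the 10 beta subunits tested, 5 were higher, 2 lower and 3 did not pass, with a median of 0.10. The median was 0.062 without shE6AP library 1 and 0.035 without the low-count filter, which adds PSMB11. Those without a catalytic site, PSMB1, PSMB2, PSMB3 and PSMB4, moved little. PSMB4, the lowest of them by fold change, had 232, 222 and 214 CPM in shE6AP and 271, 248 and 253 CPM in wobble (log2 fold change -0.21), with no overlap. PSMB3 was higher by 0.14, although its libraries overlapped, and the call ended without shE6AP library 1. PSMB1 and PSMB2 did not pass, with intervals of -0.08 to 0.06 and -0.01 to 0.13.

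The 3 constitutive catalytic subunits went separate ways. PSMB5, the chymotrypsin-like subunit, was lower, PSMB7, the trypsin-like subunit, was higher, and PSMB6, the caspase-like subunit, did not pass. PSMB5 had 67.3, 66.8 and 70.4 CPM in shE6AP, against 91.0, 80.9 and 86.7 CPM in wobble, so every shE6AP library was lower (log2 fold change -0.34, SE 0.0407; edgeR adjusted p = 1.15e-09). PSMB7 had 169.5, 159 and 162 CPM in shE6AP, against 141, 133 and 131 CPM in wobble, and every shE6AP library was higher (0.28, SE 0.0358; edgeR adjusted p = 5.75e-09). PSMB6 had 119.9, 109 and 109 CPM in shE6AP and 118, 109 and 109.9 CPM in wobble; the 95% interval of its log2 fold change ran from -0.07 to 0.08.

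All 3 inducible subunits of the immunoproteasome were higher in shE6AP, where 28.6% of all genes tested were higher. In each of the 3, the lowest shE6AP library lay above the highest wobble library. Such gaps were common, as 62.6% of all genes tested had no overlap in either direction. PSMB9, which takes the place of PSMB6, was at 13.3, 12.4 and 11.9 CPM in shE6AP and at 6.84, 7.86 and 6.24 CPM in wobble. Its log2 fold change of 0.85 (SE 0.0842; edgeR adjusted p = 8.19e-12) is the highest of the 46 members. PSMB8, which replaces PSMB5, had 30.5, 26.0 and 27.4 CPM in shE6AP, against 23.3, 20.8 and 20.8 CPM in wobble (0.38, SE 0.0586; edgeR adjusted p = 3.96e-07). PSMB10, which replaces PSMB7, had 9.64, 8.85 and 9.43 CPM in shE6AP, against 7.63, 6.82 and 6.75 CPM in wobble (0.40, SE 0.0859; edgeR adjusted p = 9.37e-05). PSMB8 shares 27.4% of its exon bases and PSMB9 15.1% with the noncoding gene PSMB8-AS1 or with each other, and the library kit does not mark strand. PSMB10 shares 45.3% with a protein-coding gene on the same strand that has its own row in the table, so its level is uncertain.

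The bases upstream of the annotated starts of these genes are shown because the 3 genes moved together and PSMB8 and PSMB9 are neighbours in the MHC region of chromosome 6. The sequences are the 250 bases before the start in RefSeq, on build GRCh38.p14, at chr6:32844680-32844929 on the minus strand for PSMB8 (the farther upstream of the starts listed), chr6:32853942-32854191 on the plus strand for PSMB9 and chr16:67936851-67937100 on the minus strand for PSMB10. Capitals mark matches, on either strand, to the interferon response core (GAAA and again GAAA, with any pair of bases between them), the antioxidant response core TGACNNNGC or the NF-Y box CCAAT, with N for any base.
PSMB8: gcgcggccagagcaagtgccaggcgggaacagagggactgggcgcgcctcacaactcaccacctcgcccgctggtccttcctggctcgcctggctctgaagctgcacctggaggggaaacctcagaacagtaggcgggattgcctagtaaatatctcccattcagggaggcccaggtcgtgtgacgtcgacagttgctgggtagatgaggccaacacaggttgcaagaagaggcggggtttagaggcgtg
PSMB9: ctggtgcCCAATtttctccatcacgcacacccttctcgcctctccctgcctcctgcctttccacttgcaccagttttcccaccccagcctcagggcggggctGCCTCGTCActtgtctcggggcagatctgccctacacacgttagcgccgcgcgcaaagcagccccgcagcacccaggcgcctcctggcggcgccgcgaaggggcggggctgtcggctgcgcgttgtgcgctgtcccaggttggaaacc
PSMB10: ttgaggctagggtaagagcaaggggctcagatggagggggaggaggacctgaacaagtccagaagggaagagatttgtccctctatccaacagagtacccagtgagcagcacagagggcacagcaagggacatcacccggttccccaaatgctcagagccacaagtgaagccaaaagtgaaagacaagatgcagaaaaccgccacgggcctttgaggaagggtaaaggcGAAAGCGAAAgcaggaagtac
PSMB10 has the interferon response core at 21 to 12 bases before its start, PSMB9 has a CCAAT box at 243 to 239 bases and an antioxidant response core at 148 to 140 bases, and the PSMB8 window shown holds none of the 3. Among all 35116 RefSeq promoter windows of this length, 3.02% hold the interferon response core, 10.9% the antioxidant response core and 32.0% the CCAAT box. Of the 47 members, 41 were matched in that table, with 50 windows. Of these windows 10.0% hold the interferon response core, 26.0% the antioxidant response core and 38.0% the CCAAT box. The antioxidant response core, which NFE2L1 and NFE2L2 bind with small MAF proteins, was found in 6 of 16 members called higher, 4 of 14 called lower and 3 of 10 that did not pass. The interferon response core was found in 2 of 16 higher, 2 of 14 lower and 1 of 10 that did not pass. A match describes the letters only and does not show a bound site.

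Set against the constitutive subunit that each replaces, in the same library, the inducible subunits gained unequally. There were 45.4, 38.9 and 38.9 PSMB8 reads per 100 PSMB5 reads in shE6AP, against 25.6, 25.7 and 24.0 in wobble, a ratio 1.63-fold higher. PSMB9 reads per 100 PSMB6 reads numbered 11.1, 11.3 and 10.9 in shE6AP and 5.79, 7.19 and 5.68 in wobble, 1.80-fold higher. PSMB10 had 5.69, 5.58 and 5.80 reads per 100 PSMB7 reads in shE6AP, against 5.4, 5.14 and 5.17 in wobble, 1.09-fold higher. The groups did not overlap in any of the 3 ratios, and each had an exact two-sided permutation p = 0.1 (0.1 also after Benjamini-Hochberg adjustment over the 3), the smallest that 3 libraries against 3 allow. PSMB5 itself was lower and PSMB7 higher, so the first ratio rose on both counts and the third by less than PSMB10 alone. Reads are not corrected for gene length, so the ratios compare groups and not the subunits with each other.

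**Figure D2:**
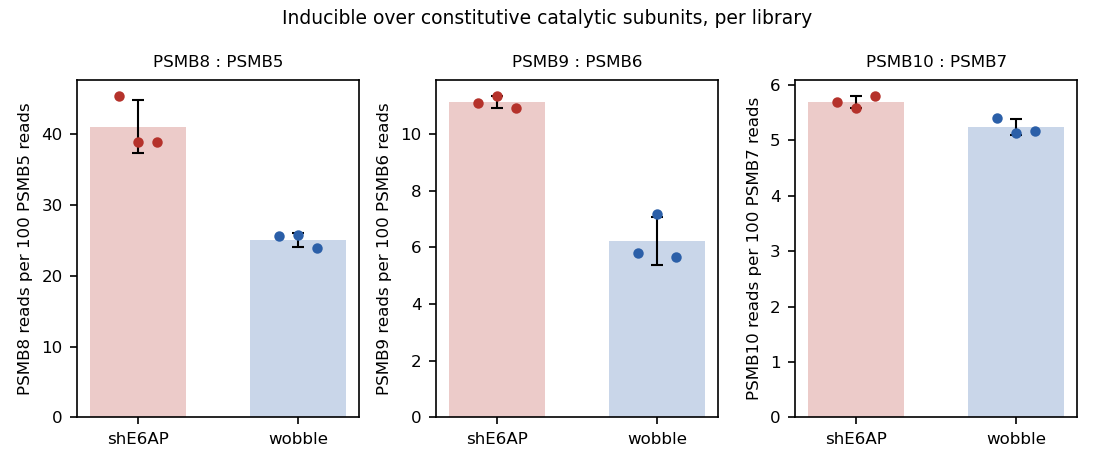
Reads of each inducible catalytic subunit per 100 reads of the constitutive subunit it replaces (vertical axes, each from 0), for shE6AP and wobble; points are libraries, bars the means and error bars the SD (n = 3). The PSMB8 to PSMB5 ratio averages 41.1 in shE6AP and 25.1 in wobble, PSMB9 to PSMB6 11.1 and 6.22, and PSMB10 to PSMB7 5.69 and 5.24.

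Most other genes listed for antigen processing moved the same way. On a list of 12 interferon-linked genes, 11 were higher and 1, the trimming peptidase ERAP2, was lower. Their median log2 fold change was 0.47. Of all genes tested, 28.6% were higher and 30.4% lower. The list was chosen with earlier results of these data known. TAP1, the peptide transporter whose start lies close to that of PSMB9, had 79.3 ± 2.26 CPM in shE6AP and 50.4 ± 1.24 CPM in wobble (SD, n = 3 each; log2 fold change 0.66). HLA-C (0.73) and HLA-B (0.75) were, with TAP1, those with the smallest p, although reads can be split between near-identical HLA genes. IRF1, an interferon-induced transcription factor, was also higher by 0.54. White blood cells make immunoproteasome subunits at rest. Of 5 blood cell markers, 4 had rows: CD14 was higher (2.41 and 0.700 CPM, shE6AP and wobble means), CD79A was lower (0.528 and 2.45 CPM), and LYZ and PTPRC did not pass. Their summed level was 5.89 to 6.46 CPM in shE6AP libraries and 5.33 to 6.34 CPM in wobble libraries, with PTPRC, the common leukocyte antigen, at 0.359 and 0.267 CPM. Fibroblast and endothelial markers, of which 4 of 5 had rows, summed to 17.6 to 19.1 CPM in shE6AP libraries and 13.4 to 16.5 CPM in wobble libraries, mostly COL1A1. The part of these markers in the rise of the inducible subunits was not tested.

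The ATPases moved together. All 6 had a positive fold change, with 5 called higher and none lower, where 28.6% of all genes tested were higher and 30.4% lower. The median was 0.20 with a range of 0.08 to 0.32, and glmTreat called none beyond 1.2-fold. PSMC5 had 182, 174 and 179 CPM in shE6AP, against 151, 139.7 and 140.3 CPM in wobble (log2 fold change 0.32, SE 0.0350; edgeR adjusted p = 1.61e-10). PSMC3 had 122, 114 and 114 CPM in shE6AP, against 98.3, 92.1 and 92.8 CPM in wobble (0.31, SE 0.0373; edgeR adjusted p = 1.65e-09). For PSMC1 the levels were 122, 116 and 121 CPM in shE6AP and 108, 101 and 104 CPM in wobble (0.20). In each of the 6 ATPases every shE6AP library lay above every wobble library, where 62.6% of all genes tested had no overlap in either direction. PSMC6 was higher by 0.20 and PSMC2 by 0.09, while PSMC4 had a fold change of 0.08 and an edgeR adjusted p of 0.0601. The calls near the threshold depended on the processing: PSMC2 was not called with DESeq2, without the low-count filter, or without shE6AP library 1, shE6AP library 2 or wobble library 2. PSMC4 was called with RLE, upper-quartile or library-total scaling, with a filter at 1 CPM, with a replicate block and without wobble library 1. PSMC1 shares 82.1% of its exon bases with NRDE2 and PSMC5 21.0% with FTSJ3, both on the opposite strand. Summed over the class, the level was 698 ± 16.1 CPM in shE6AP and 605 ± 17.6 CPM in wobble (SD, n = 3 each).

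Of the 14 lid and base genes, 3 were higher, 8 lower and 3 did not pass, with a median of -0.11. The base subunits with PSMD names went against the ATPases: PSMD1, PSMD2 and PSMD4 were all lower. ADRM1, a further base subunit under another name, did not follow them. It had 103 ± 6.17 CPM in shE6AP and 97.9 ± 2.07 CPM in wobble, with overlapping libraries (0.07, edgeR adjusted p = 0.0910). PSMD2, a docking platform for ubiquitin shuttle factors and for USP14, had 416, 392 and 396 CPM in shE6AP, against 545, 509 and 509 CPM in wobble (log2 fold change -0.38, SE 0.0334; edgeR adjusted p = 2.87e-13). PSMD4, the ubiquitin receptor to which E6AP binds, had 244, 237 and 228 CPM in shE6AP, against 268, 251 and 252 CPM in wobble (-0.12, SE 0.0340; edgeR adjusted p = 0.00175). PSMD1, the large scaffold subunit, fell by 0.11 on the log2 scale. PSMD1, PSMD2 and PSMD4 did not overlap between the groups. Their summed level was 743 ± 19.2 CPM in shE6AP and 892 ± 31.8 CPM in wobble (SD, n = 3 each). Per 100 PSMC1 reads there were 339.6, 337 and 326 PSMD2 reads in shE6AP and 507, 502 and 489 in wobble. This ratio, and the other ratios between partners below, were chosen after their values were seen and are given without a test.

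The chaperones that build the base also fell. PSMD5, PSMD9 and PSMD10 are numbered as subunits but leave the finished particle; each holds an ATPase during assembly. PSMD10, also called gankyrin, which binds PSMC4, had 13.7, 14.3 and 13.5 CPM in shE6AP, against 30.1, 27.2 and 27.3 CPM in wobble. This left 49.1% of the wobble level, the lowest share among the tested members (log2 fold change -1.03, SE 0.0600; edgeR adjusted p = 4.3e-19). PSMD5 fell by 0.20 and PSMD9 by 0.13 on the log2 scale, the call of PSMD9 being lost with upper-quartile scaling and with DESeq2. PSMD9 also shares 43.8% of its exon bases with same-strand genes, among them WDR66, which has a row in the table. PAAF1, a further base chaperone with another name, fell by 0.17. Per 100 PSMC4 reads, PSMD10 had 12.6, 13.1 and 12.7 reads in shE6AP, against 28.7, 26.5 and 27.1 in wobble, without overlap.

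Of the 8 lid genes with a PSMD name, 3 were higher (PSMD7, PSMD11 and PSMD12) and 2 lower (PSMD6 and PSMD14). The other 3 did not pass (PSMD3, PSMD8 and PSMD13). SHFM1, a lid subunit under another name, was lower (log2 fold change -0.21, edgeR adjusted p = 3.03e-05). PSMD14 is the deubiquitinase that cuts ubiquitin chains off the substrate. It had 38.2, 36.6 and 37.5 CPM in shE6AP, against 57.0, 58.6 and 59.7 CPM in wobble, so shE6AP stood at 64.0% of wobble (log2 fold change -0.64, SE 0.0422; edgeR adjusted p = 2.61e-17). Its binding partner PSMD7, which has the same fold and no catalytic activity, moved the other way, with 114, 115 and 109.7 CPM in shE6AP and 95.2, 89.9 and 90.8 CPM in wobble (0.30, SE 0.0363; edgeR adjusted p = 1.73e-09). Within a library there were 33.4, 31.7 and 34.2 PSMD14 reads per 100 PSMD7 reads in shE6AP and 59.9, 65.2 and 65.7 in wobble. PSMD7 shares 42.4% of its exon bases with a noncoding gene on the opposite strand.

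PSMD6, another lid subunit, had 45.0, 44.2 and 44.1 CPM in shE6AP, against 63.0, 59.6 and 61.8 CPM in wobble, without overlap (-0.47). PSMD11, which clamps the lid onto the base and core, had 203, 196 and 190.4 CPM in shE6AP and 171, 172 and 177 CPM in wobble (0.18). PSMD12 had 103, 99.2 and 97.1 CPM in shE6AP and 83.3, 83.9 and 91.9 CPM in wobble (0.21). For both genes the lowest shE6AP library exceeded the highest wobble library. PSMD3, PSMD8 and PSMD13 had fold changes of 0.03, 0.03 and 0.00, with intervals between -0.07 and 0.10. PSMD13 shares 15.0% of its exon bases with SIRT3 on the opposite strand. The COP9 signalosome, a complex built on the plan of the lid, had 2 of 9 genes higher and 2 lower, with a median of 0.06; its deubiquitinase-like subunit COPS5 fell by 0.22 on the log2 scale.

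The bases before the starts of PSMD10 and PSMD14 are shown as those of the members that fell most. They lie at chrX:108091543-108091792 on the minus strand and at chr2:161308175-161308424 on the plus strand (RefSeq, GRCh38.p14), with the capitals as above.
PSMD10: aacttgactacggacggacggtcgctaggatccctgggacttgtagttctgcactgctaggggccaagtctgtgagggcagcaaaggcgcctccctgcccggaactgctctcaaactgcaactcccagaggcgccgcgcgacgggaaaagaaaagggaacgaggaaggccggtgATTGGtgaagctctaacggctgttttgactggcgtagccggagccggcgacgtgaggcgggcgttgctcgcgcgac
PSMD14: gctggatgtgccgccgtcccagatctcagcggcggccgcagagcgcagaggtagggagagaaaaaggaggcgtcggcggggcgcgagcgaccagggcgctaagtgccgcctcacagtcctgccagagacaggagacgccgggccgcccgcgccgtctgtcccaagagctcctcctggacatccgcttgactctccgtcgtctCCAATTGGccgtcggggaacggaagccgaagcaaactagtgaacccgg
Both hold a CCAAT box, at 76 to 72 bases before the start in PSMD10, and in PSMD14 as overlapping matches on both strands, at 48 to 44 and 45 to 41 bases. The box was found in 7 of 16 members called higher, 5 of 14 called lower and 6 of 10 that did not pass.

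Regulators that bind the core in place of the base changed little: of 5, 1 was higher, 2 lower and 2 did not pass, with a median of -0.04. PSME2, the beta subunit of the interferon-inducible activator PA28, had 43.3, 42.8 and 38.8 CPM in shE6AP, against 50.3, 48.4 and 48.6 CPM in wobble (log2 fold change -0.24, SE 0.0445; edgeR adjusted p = 1.2e-05). PSME1, its alpha partner, had 67.8, 65.4 and 65.0 CPM in shE6AP and 64.7, 62.4 and 63.6 CPM in wobble, and did not pass (0.06, with an interval of -0.02 to 0.13). Neither PA28 gene was called higher. PSME2 shares 11.4% of its exon bases with other genes, among them RNF31 on the opposite strand. Per 100 PSME2 reads there were 157, 153 and 167 PSME1 reads in shE6AP and 129, 129 and 131 in wobble, without overlap. PSME3, the nuclear activator PA28 gamma, had 126, 125 and 125 CPM in shE6AP and 129, 127 and 130.4 CPM in wobble, with an interval of -0.11 to 0.02. PSME4, the nuclear activator PA200, had 173, 179.7 and 170.5 CPM in shE6AP and 163, 166 and 167 CPM in wobble (0.08, edgeR adjusted p = 0.0461). That call ended without any library but shE6AP 3, with DESeq2 and without the low-count filter, with adjusted p values of 0.0544 to 0.27. PSMF1, the regulator PI31, had 128.5, 130.5 and 121 CPM in shE6AP and 144, 140.1 and 139 CPM in wobble, without overlap (-0.16).

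The chaperones that assemble the alpha ring act as dimers (2 of 4 higher and 2 lower, with a median of 0.08, or 0.050 without shE6AP library 1), and in each dimer the partners moved apart. PSMG2 had 65.6, 62.2 and 61.3 CPM in shE6AP, against 39.7, 41.5 and 43.7 CPM in wobble (log2 fold change 0.60, SE 0.0431; edgeR adjusted p = 4.01e-16), second among members only to PSMB9. Its partner PSMG1 was at 38.2, 39.1 and 37.0 CPM in shE6AP and at 43.6, 42.6 and 43.4 CPM in wobble (-0.18, SE 0.0437; edgeR adjusted p = 0.000393). Per 100 PSMG1 reads, PSMG2 had 172, 159 and 166 reads in shE6AP, against 91.1, 97.4 and 101 in wobble. In the other dimer, PSMG4 had 25.4, 24.3 and 24.1 CPM in shE6AP and 20.05, 20.5 and 19.9 CPM in wobble (0.29). PSMG3 had 43.8, 42.0 and 40.5 CPM in shE6AP and 46.6, 45.6 and 46.1 CPM in wobble (-0.13), a call that ended without shE6AP library 3 (adjusted p = 0.08). Per 100 PSMG3 reads, PSMG4 had 58.0, 57.9 and 59.6 reads in shE6AP, against 43.0, 44.8 and 43.1 in wobble. Neither ratio overlapped between the groups. PSMG2 shares 14.8% of its exon bases with CEP76 on the opposite strand. POMP, which completes the core after these chaperones, did not pass (49.1 ± 2.43 CPM in shE6AP and 51.4 ± 3.55 CPM in wobble, SD, n = 3 each).

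**Figure D3:**
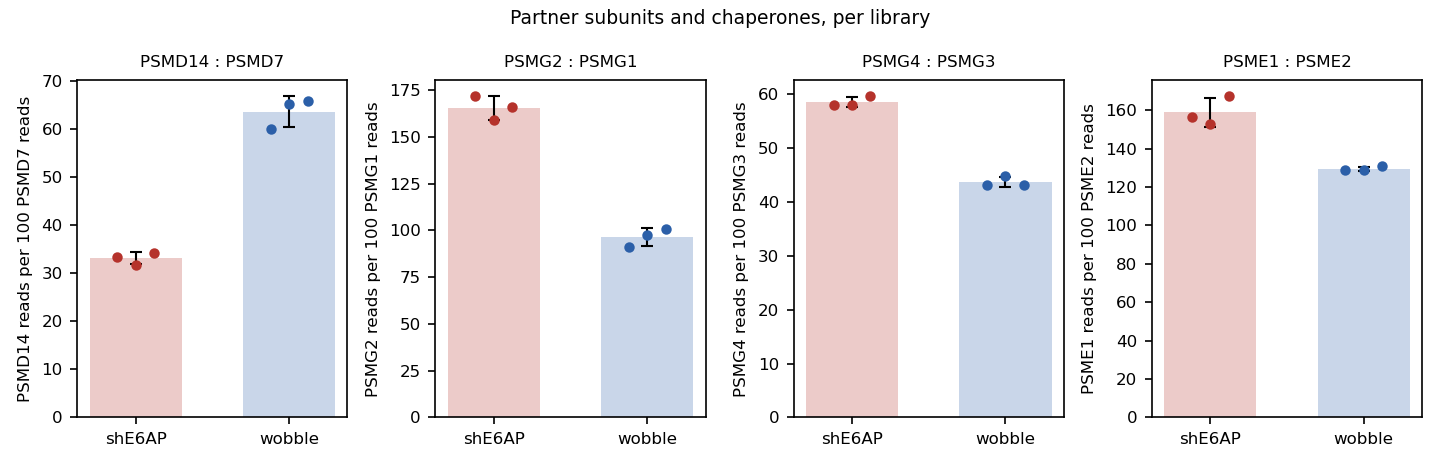
Reads of a gene per 100 reads of its partner in the same library (vertical axes, each from 0), for shE6AP and wobble; points are libraries, bars the means and error bars the SD (n = 3). PSMD14 to PSMD7 averages 33.1 in shE6AP and 63.6 in wobble, PSMG2 to PSMG1 166 and 96.5, PSMG4 to PSMG3 58.5 and 43.7, and PSME1 to PSME2 159 and 129.5.

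**Figure D4:**
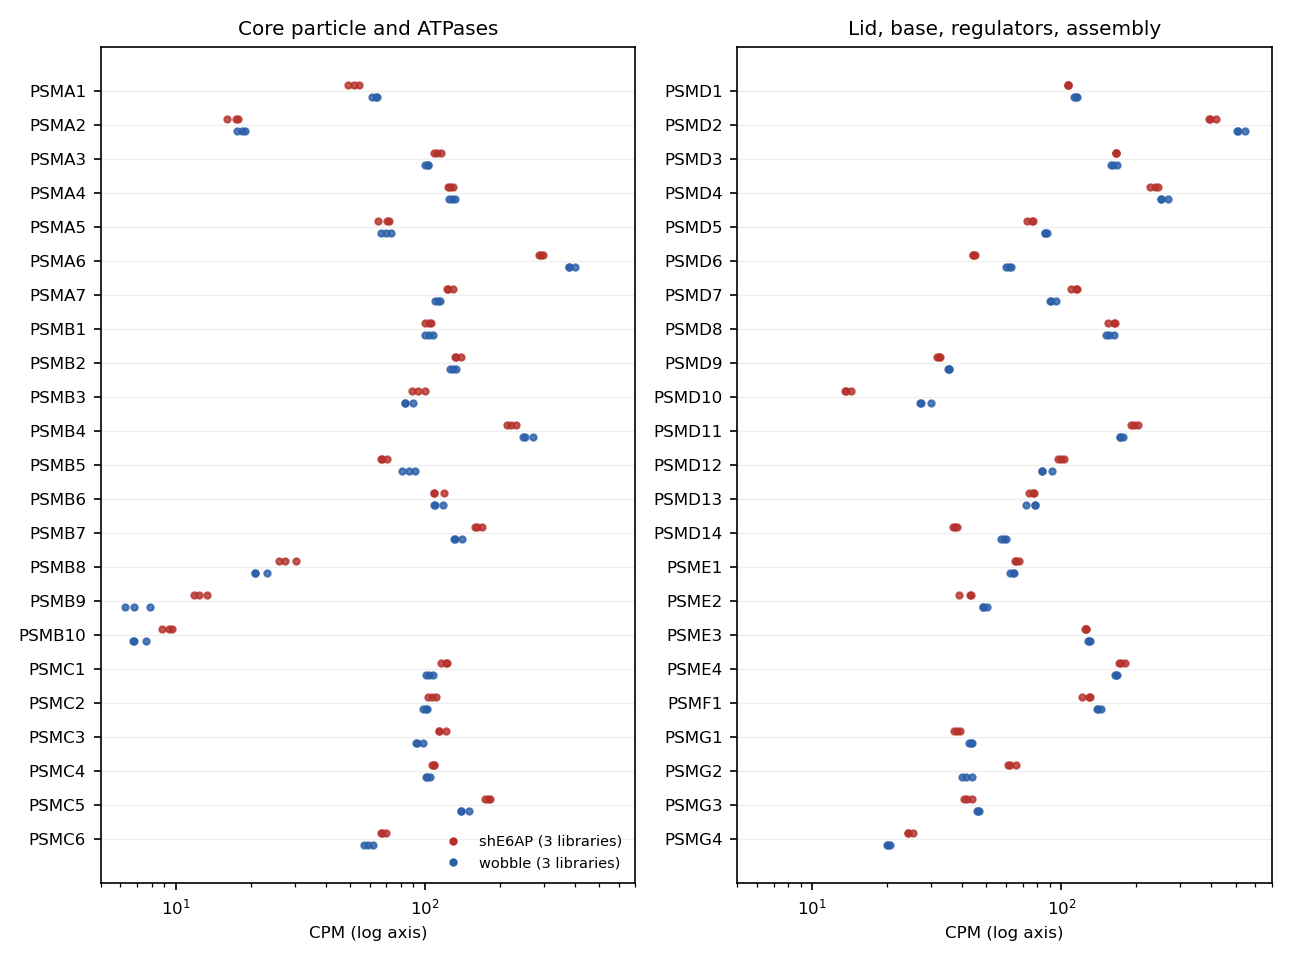
Level of each tested member in CPM (horizontal axes, log scale), with the 3 shE6AP libraries as red points above the 3 wobble libraries as blue points. PSMD10 shows the widest gap to the left, at 13.5 to 14.3 CPM in shE6AP and 27.2 to 30.1 CPM in wobble, and PSMB9 the widest to the right, at 11.9 to 13.3 and 6.24 to 7.86 CPM.

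Genes that work with the proteasome under other names were mixed as well. As 59.0% of all genes tested passed, 28.6% higher and 30.4% lower, the numbers of calls say little about these lists. Of 14 associated subunits and factors, 6 were higher, 3 lower and 5 did not pass, with a median of 0.08. USP14, the deubiquitinase that docks on PSMD2, had 224 ± 3.60 CPM in shE6AP and 154 ± 3.58 CPM in wobble (log2 fold change 0.54). TXNL1, a thioredoxin-like protein bound to the regulatory particle, had 53.1 ± 1.30 CPM in shE6AP and 36.2 ± 0.713 CPM in wobble (0.55), and KIAA0368, the adaptor ECM29, was higher by 0.29. Of 14 genes that control proteasome gene expression, 7 were higher and 4 lower. The small MAF genes MAFF (1.03) and MAFG (0.49) were higher, and MAFK did not pass (-0.01, with an interval of -0.08 to 0.06). NGLY1, the deglycosylase that NFE2L1 needs for its activity, had 26.0 ± 0.411 CPM in shE6AP and 44.1 ± 1.15 CPM in wobble (SD, n = 3 each; -0.76). NFE2L1 itself, the factor that raises proteasome genes when proteasome activity drops, was higher by 0.13. On the same list NFE2L2 was higher by 0.34, while VCP was lower (-0.27). Of 11 ubiquitin genes and shuttle factors, 4 were higher and 2 lower, the ubiquitin genes RPS27A (-0.43) and UBB (-0.33); the shuttle factor RAD23B was higher by 0.22.

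Some of the members that changed lie among genes that changed the same way, and others do not. For each member, the median log2 fold change was taken over up to 10 tested protein-coding neighbours, 5 on each side, that are not members. For PSMD6 the gene ATXN7 entered repeatedly, so fewer distinct neighbours lie behind that median. Around PSMG2, on chromosome 18, 8 of 10 neighbours were higher and 1 lower, with a median of 0.50. Chromosome 18 had the highest median of the 23 chromosomes compared, at 0.30 over 214 tested genes, of which 62.6% were higher and 11.7% lower; USP14 and TXNL1 lie on it too. PSMD2 and PSMD6 are the members on chromosome 3, which had the lowest median, at -0.22 over 870 genes, with 18.2% higher and 52.8% lower. Around PSMA6, on chromosome 14, 8 of 10 neighbours were lower and none higher, where 39.5% of the tested genes on that chromosome were lower. For PSMB8 and PSMB9, which share their neighbours, 7 of 10 were higher, TAP1 and TAP2 among them, against 28.8% on chromosome 6. For PSMB10, 9 of 10 were higher, against 30.9% on chromosome 16.

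PSMD14 went against its surroundings. Around it 7 of 10 neighbours were higher and 1 lower, with a median of 0.41. The neighbours of PSMD10 had a median of -0.11, with 1 higher and 3 lower. PSMB6 lay among genes with a median of -0.53 and had a fold change of 0.00. Across the 46 tested members, Pearson's r between a member's fold change and the median of its neighbours was 0.43 and Spearman's rho 0.41. Against the median of the member's chromosome, r was 0.35 and rho 0.18. The points share libraries, and adjacent members share neighbours or a chromosome. Of the 18 higher members 13 had a positive neighbour median, and of the 16 lower members 10 had a negative one. The part of chromosomal position in the members' changes was not tested.

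**Figure D5:**
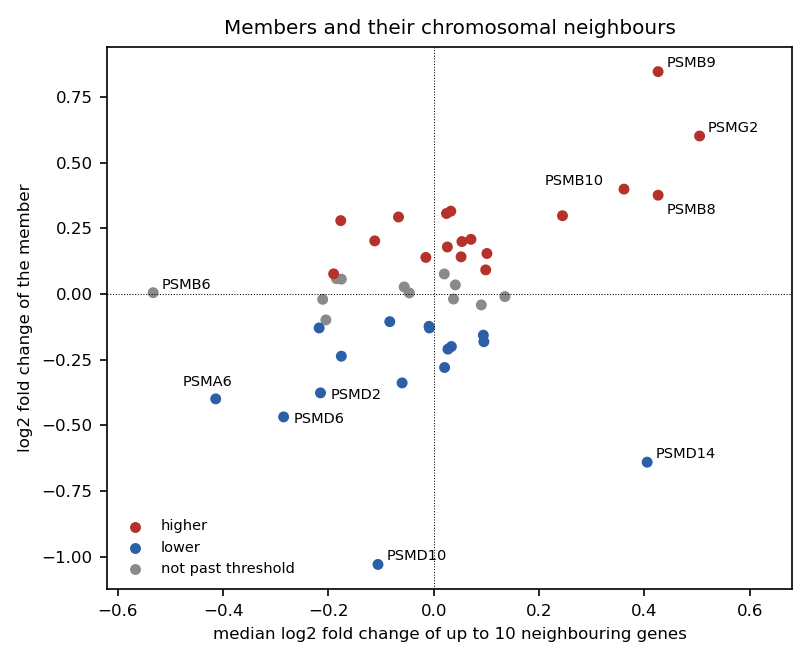
Log2 fold change of each of the 46 tested members (vertical axis) against the median log2 fold change of up to 10 neighbouring genes that are not members (horizontal axis); points are genes, red where higher, blue where lower and grey where the test was not passed. PSMG2 and PSMB9 lie at the upper right, with neighbour medians of 0.50 and 0.43, and PSMD14 at the lower right, at -0.64 beside a neighbour median of 0.41.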

How the data were processed

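Per the submitters' processing notes, TopHat2 2.0.13, Bowtie2 and HTSeq were used with build hg19; the annotation and strand setting were not given in the sources used here. The library kit does not mark strand. Values in the deposited table are raw counts, 1 column per library. HTSeq summary rows, a row without a name and a row without values (RPL23A) were left out of library sizes and tests; reads outside genes made up 14.6% to 16.0% of the table, ambiguous reads 2.05% to 2.21% and the unnamed row at most 4.59e-05%.

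All genes were fitted in edgeR 4.0.16 under R 4.3.3 with filterByExpr, TMM factors and the quasi-likelihood test, group as the only term, with Benjamini-Hochberg adjustment over the 19433 genes tested. Standard errors divide the log2 fold change by the root of the F statistic, and 95% intervals are 1.96 standard errors either side. Ratios of inducible to constitutive subunits used exact permutation tests. Replicates were not duplicates of one another (chi-square per gene between 1.76 and 3.52). The code was tested on simulated data. Alternatives were 3 other scalings (RLE, upper-quartile, library total), limma-voom with limma 3.58.1, DESeq2 1.42.0, other filters, a replicate block, each library left out, and glmTreat; an assumed variation of 0.1 was added after seeing the data.

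The members and lists were chosen with earlier results of these data known. The rule named 30 members: catalytic subunits, PSMD4, PSMD14, regulators, core chaperones, and in each class up to 3 higher and 3 lower by smallest p; of each list up to 3 by smallest p, and TAP1. Other genes named, the partner ratios and the neighbour medians were chosen after their values were seen. Overlaps, chromosomes and neighbours come from GENCODE 29 (GRCh38), with RefSeq synonyms placing 82.5% of tested genes on a chromosome; the counting annotation may differ. Of 30 named PSM pseudogenes in GENCODE 29, 3 have rows in the table, at under 2 CPM, so reads of the others may lie with the parent genes or outside genes. Some marker and motif results are not reported here.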

Additional observations from a re-analysis of the deposited data

How the results depend on the processing

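Counts of members moved by over 1.5 times only where a size or a wider spread was required: 3 higher and 6 lower with glmTreat against a fold of 1.2, and 7 higher and 6 lower with an assumed variation of 0.1. With each library left out, 15 to 18 members were higher and 15 to 16 lower. Class medians near 0 were unsteady. For activators and inhibitor the median was -0.013 with upper-quartile scaling and -0.065 without the filter. With a library left out, medians ran from -0.057 to -0.0043 for core alpha, 0.062 to 0.125 for core beta and 0.050 to 0.102 for core chaperones; without the filter, core alpha was at -0.043 and core beta at 0.035, and core alpha was at -0.011 with library-total scaling and -0.013 with the 1 CPM filter. Further, the largest shift of the all-gene median under any scaling was 0.0284. PSMB6, not called, turned to -0.018 without the low-count filter and ran from -0.047 to 0.038 with a library left out.

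Among the lists, with glmTreat associated factors had 2 higher and 0 lower, control of expression 3 and 1, ubiquitin supply 0 higher and COP9 0 and 0. With an assumed variation of 0.1 these were 3 and 0, 3 and 1, 0, and 0 and 0. Associated factors lower were 1 with upper-quartile scaling or DESeq2 and 1 to 3 with a library left out. Ubiquitin genes lower were 4 without the filter or with the replicate block, and 2 to 4 with a library left out. COP9 genes higher were 4 with upper-quartile scaling, 1 with DESeq2 or without the filter, and 1 to 3 with a library left out. The causes were not tested.

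Libraries that share a number had weakly positive correlations of deviations (0.02 to 0.04). Those with different numbers had weakly negative ones (-0.033 to -0.0057). Deviations were taken from each group's mean, so values for different numbers lean negative once those for shared numbers are positive. The negative values are therefore no separate evidence. A weak pairing is therefore possible, but the labels state none, so the numbers were not taken as pairs. With the replicate block 19 members were higher, PSMC4 being added, and 16 lower.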
